A study of Mus musculus with 6 samples.

Results

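The far end of mouse chromosome 2 holds a dense array of genes, most of them KRAB zinc finger genes, and 43 of its genes were followed through the brain RNA of mice lacking TRMT1L and of wild-type mice. They are all the protein-coding genes of GENCODE M21 that start between 175 and 178 Mb on chromosome 2 (GRCm38), chosen by position and gene type, out of 55450 annotated genes. The array runs from 175010241 to 177957297, with 21 members on the plus strand and 22 on the minus strand. No measured value decided membership, but the array was picked with earlier results of these data known. Size-selected long RNA from whole brain was sequenced in 6 libraries, 3 labelled TRMT1L KO (a loss of the TRMT1L protein, a relative of a tRNA methyltransferase) and 3 labelled WT. The labels call them biological triplicates and give no strain, sex, age or litter, nor how the gene was inactivated.

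KRAB zinc finger proteins are built from a KRAB domain near the start and a run of C2H2 zinc fingers, each of which holds a zinc ion between paired cysteines and histidines and reads a few bases of DNA. The KRAB domain recruits the corepressor TRIM28, which brings the histone methyltransferase SETDB1 and related silencing enzymes, and many such proteins repress transposable elements. Their genes multiply by tandem duplication, so that neighbours in an array can be almost identical, and a read that fits several copies cannot be assigned to a gene.

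Reads counted in genes ranged from 31201119 to 36145961 per library, with TMM scaling factors between 0.984 and 1.01. Trmt1l, the targeted gene, had 1279, 1034 and 1158 counts in the WT replicates against 93, 101 and 106 in the KO replicates, so each library matched its label. Values per library are given here and below in the order of replicates 1, 2 and 3. Markers of neurons, astrocytes, oligodendrocytes, microglia, endothelium, choroid plexus and blood were all detected in every library, with none at 0. Of 4 markers of testis and early embryo, places where zinc finger arrays are also known to be active, 2 passed the filter on low counts and 1 had no count in any library. In bulk tissue, fewer cells of a type and less RNA per cell cannot be told apart.

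Most of the members were KRAB zinc finger genes by their coding sequence. In the translated longest annotated coding sequence, 37 of 43 held the core of the KRAB box and 34 held between 3 and 25 C2H2 fingers, with 33 holding both. Only 5 held neither pattern, namely 2210418O10Rik, Gm11009, Gm14408, Gm14296 and Zfp972. Gm14295 has the longest finger array, with 25 fingers in 834 residues. Short annotated proteins, such as the 64 residues of Gm14440 and of Gm14327, keep the KRAB box without fingers.

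Copies with the same coding sequence were common, as 19 members had a coding sequence identical to that of another member. Gm4631, Gm4724, Gm11007, Gm2007, Gm2026, Gm14434 and Gm14308 shared 1494 coding bases without a difference, and Zfp966, Zfp967, Zfp968 and Zfp969 shared 1455. The other identical sets were the pairs Gm14391 and Gm6710, Zfp965 and Zfp973, Gm2004 and Gm14419, and 2210418O10Rik and Gm14296. One finger of Gm14308, the 4th of its array, is shown with the linker after it, in 84 coding bases from the GENCODE transcripts, because it lets a copy that cannot be told from others be set beside members that could be counted. Capitals mark bases that differ from Gm14308 in the aligned stretch.
Gm14308: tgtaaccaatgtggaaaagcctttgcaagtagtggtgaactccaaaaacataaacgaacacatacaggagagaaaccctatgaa
Gm2007: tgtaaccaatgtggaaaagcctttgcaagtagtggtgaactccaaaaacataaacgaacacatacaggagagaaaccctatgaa
Gm14305: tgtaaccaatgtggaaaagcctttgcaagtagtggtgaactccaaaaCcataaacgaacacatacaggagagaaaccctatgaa
Gm14325: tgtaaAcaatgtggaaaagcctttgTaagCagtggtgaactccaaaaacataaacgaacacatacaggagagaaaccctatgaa
Gm14326: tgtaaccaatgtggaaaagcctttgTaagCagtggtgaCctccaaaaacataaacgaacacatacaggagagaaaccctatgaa
Gm14443: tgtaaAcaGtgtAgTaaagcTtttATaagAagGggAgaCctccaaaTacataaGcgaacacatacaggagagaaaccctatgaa
Gm2007 matched Gm14308 at every base, Gm14305 differed at 1, Gm14325 and Gm14326 at 3 each, and Gm14443 at 13. The aligned stretch of Gm14443 lies at coding bases 649 to 732, and those of the others at 565 to 648. Whether it is the same finger of the array was not tested. Over the whole coding sequence Gm14305 was 99.5% identical to Gm4631, and Gm14443 reached at most 87.3% identity, with Gm14399.

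Most of the members' promoters shared a stretch of sequence. RefSeq promoter windows (GRCm38.p6, 250 bases before to 50 after the start) were matched by symbol for 29 of the 43 members. The commonest 20-base words among them, 11 overlapping words tied, each stood in 26 of the 29 windows. The leftmost of them in the window of Gm14305, ACTCTAACCCTAAGGGTGGT, was searched in all promoters. On either strand it was found in 29 of 27025 genes with a promoter window, or 0.107%, and the 3 outside the array were Gm35319, Zfp931 and Zfp971. It was chosen from the members' own windows, so its frequency there is a description. A CCAAT box, a common promoter element, followed in each of the 26, inside the word GCCAATCAGA. GCCAATCAGA was in 89.7% of the members' windows and 1.1% of all genes' windows, and CCAAT alone was in 93.1% and 41.1% (both strands counted). GCCAATCAGA was also chosen from the members' own windows, among 3 tied commonest words that hold CCAAT, so its share there is a description. The 54 bases from the first word to the second were identical in 25 members, among them genes with many counts and genes with none, and they are shown for Gm14305 (chr2:176708204-176708257, plus strand) and for Gm2007 (chr2:175737801-175737854, plus strand), with the only other form, that of Zfp972 (chr2:177925729-177925782, minus strand). Capitals mark the CCAAT box, and none of the 3 stretches lies in an annotated exon of its gene.
Gm14305: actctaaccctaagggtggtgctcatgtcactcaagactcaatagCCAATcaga
Gm2007: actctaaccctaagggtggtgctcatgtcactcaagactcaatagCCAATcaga
Zfp972: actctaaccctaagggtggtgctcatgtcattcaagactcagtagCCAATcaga
The GCCAATCAGA word began between 20 and 105 bases before the RefSeq start. These matches describe the letters only.

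Counts differed by orders of magnitude between the members. The whole array collected 8212, 6878 and 7316 counts in the WT replicates against 7137, 6758 and 6931 in the KO replicates. The 12 members with the highest mean abundance held between 93.4% and 94.9% of them in each library. Of the 43 members, 8 had over 500 counts in every library, while 25 never reached 20. Gm4631, Zfp968, Gm11007, Zfp969, Gm2007, Gm11009, Gm14434 and Zfp967 had no count in any of the 6 libraries. A count of 0 allows up to 3 counts, or between 0.0824 and 0.0957 CPM (counts scaled to library size), of reads that could be assigned, and for members with little or no unique sequence it sets no limit on their RNA.

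**Figure D1:**
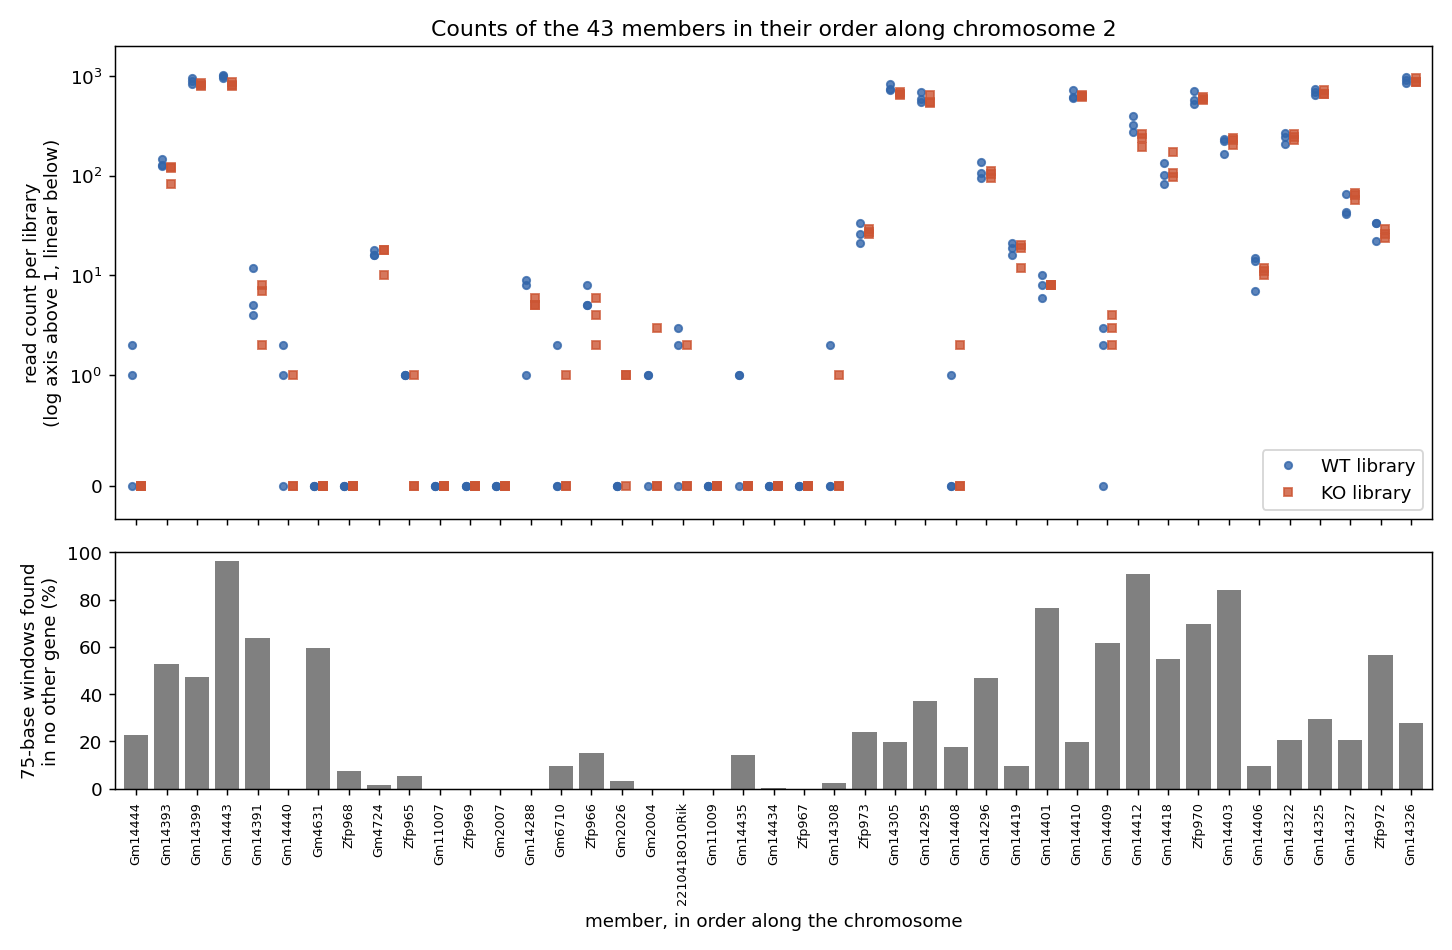
Upper panel, read counts of the 43 members in each WT (circles) and KO (squares) library, in order along the chromosome, on a log axis above 1. Lower panel, the percentage of each member's 75-base transcript windows found in no other gene. The 15 members from Zfp965 to Gm14308 have at most 9 counts in a library and at most 14.9% such windows.

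How much of each transcript can be told from other genes was computed from the GENCODE transcripts, as the share of a member's 75-base windows that occur in no transcript of another gene on either strand. The median member had 19.6% such windows, and 9 members had none. Of these 9, Gm14288 had the most counts, with between 1 and 9 per library, and the others had at most 3. Among the 18 members under 10%, no count in any library exceeded 21 and 3 passed the filter on low counts, against 17 of the 25 members at or above 10%. Across the 43 members the share of such windows and the summed counts had a Spearman correlation of 0.645, a description over genes that share sequence and libraries. The read length is not given in the sources used here, and introns and intergenic copies were not searched.

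Unique sequence did not go with counts in every member. Gm4631 had no counts with 59.5% of its windows unique, Gm14401 had between 6 and 10 per library with 76.4%, and Gm14391 had between 2 and 12 with 63.9%. Gm14305, with 19.9%, had between 646 and 839. Within the array the 15 neighbours from Zfp965 to Gm14308, a block bounded after the values were seen, had at most 9 counts in any library and at most 14.9% unique windows. To its right, 16 of 19 members from Zfp973 to Gm14326 passed the filter, and to its left 4 of 9.

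**Figure D2:**
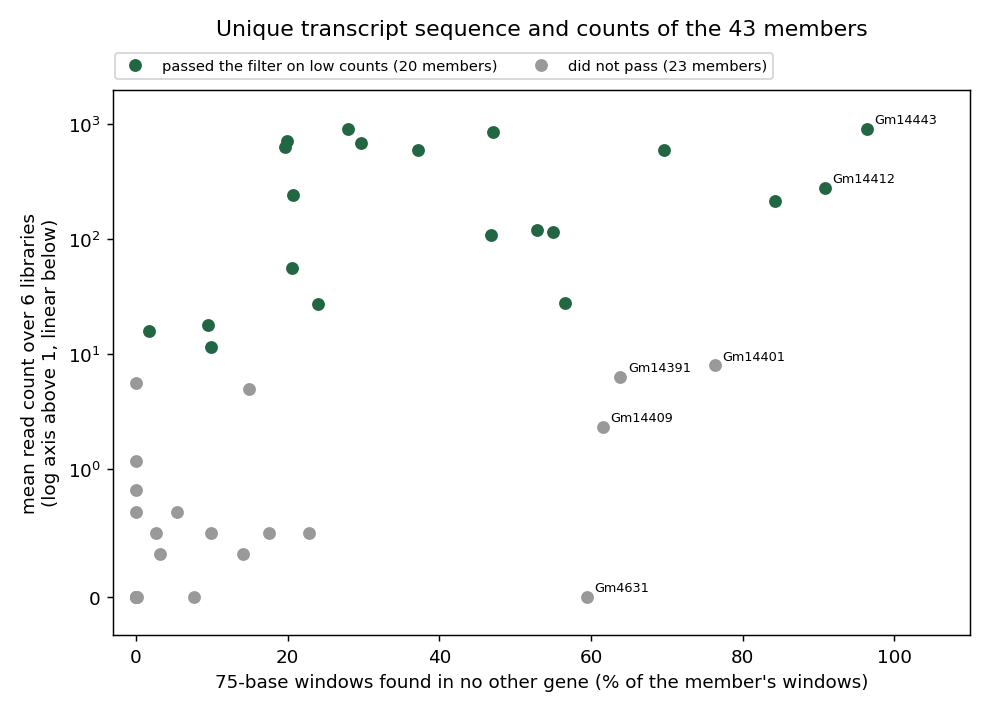
Mean read count over the 6 libraries (log axis above 1) against the percentage of 75-base windows found in no other gene, for the 20 members that passed the filter on low counts and the 23 that did not. Gm14443 has both many counts and 96.3% unique windows, whereas Gm4631 has 59.5% and no counts.

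The leading members are given in CPM, scaled with TMM factors. Gm14443 (chr2:175166255-175175871, minus strand, 16 fingers) had the highest mean, with 27.9, 30.7 and 31.2 CPM in the WT replicates against 22.8, 24.3 and 24.2 CPM in the KO replicates. The lowest WT library thus lay above the highest KO library. Gm14326, the last member of the array (chr2:177935993-177957297, minus strand, 15 fingers), had 26.8, 27.1 and 27.96 CPM in WT and 27.6, 26.2 and 24.0 CPM in KO. Its groups overlapped. Gm14399 (chr2:175129493-175142012, minus strand, 18 fingers), a neighbour of Gm14443, had 26.2, 26.5 and 27.2 CPM in WT and 22.96, 25.6 and 22.5 CPM in KO. Every KO library of Gm14399 lay below every WT library, with KO library 2 the closest.

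Gm14305 (chr2:176708328-176721813, plus strand, 14 fingers) had 23.1, 23.9 and 22.2 CPM in WT and 18.6, 19.6 and 19.0 CPM in KO, again without overlap. It shares 251 exon bases with Zfp973 on the same strand, and reads that overlap those bases were left out of both genes. Gm14325 (chr2:177831791-177840336, minus strand, 14 fingers) had 20.6, 20.4 and 20.97 CPM in WT and 19.3, 19.5 and 20.003 CPM in KO, close together but not overlapping. Gm14410 (chr2:177183453-177206421, minus strand, 9 fingers) had 19.9, 19.8 and 18.4 CPM in WT and 18.8, 18.3 and 17.6 CPM in KO. Zfp970 (chr2:177464733-177478129, plus strand, 14 fingers) had 19.5, 16.8 and 17.5 CPM in WT and 17.8, 17.3 and 16.5 CPM in KO. The groups of these last 2 genes overlapped.

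Gm14295 (chr2:176798612-176811223, plus strand) had 19.2, 17.7 and 17.9 CPM in WT and 18.5, 16.3 and 14.9 CPM in KO, with KO library 1 inside the WT range. Gm14412 (chr2:177314520-177324307, minus strand, 15 fingers) had 10.99, 8.84 and 9.75 CPM in WT and 7.57, 5.73 and 6.64 CPM in KO, the largest difference in group means among the leading members relative to their level. Gm14322 (chr2:177759288-177770472, plus strand, 8 fingers) had 7.42, 6.63 and 7.38 CPM in WT and 7.57, 7.22 and 6.34 CPM in KO, and its groups overlapped. Gm14403 (chr2:177498215-177509763, plus strand, 9 fingers) had 6.40, 5.23 and 6.78 CPM in WT and 6.94, 6.74 and 5.64 CPM in KO. It was the only leading member whose KO mean was the higher. Gm14393 (chr2:175061549-175067781, minus strand, 3 fingers) had 4.09, 4.08 and 3.80 CPM in WT and 3.48, 2.47 and 3.40 CPM in KO, all KO values below all WT values.

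Per kilobase of annotated exon the order changed. Gm14325 led with a mean of 12.5 CPM per kb over the 6 libraries, followed by Gm14399 with 9.82 and Gm14326 with 9.29 CPM per kb. Gm14443, first in CPM, was eighth of 43 with 5.52 CPM per kb. When the level was instead taken per kilobase of unique windows, Gm14305 had 44.1, Gm14325 44.0 and Gm14410 41.3 CPM per kb, against 6.24 for Gm14443. The order of the members thus depended on the length by which counts were divided.

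**Figure D3:**
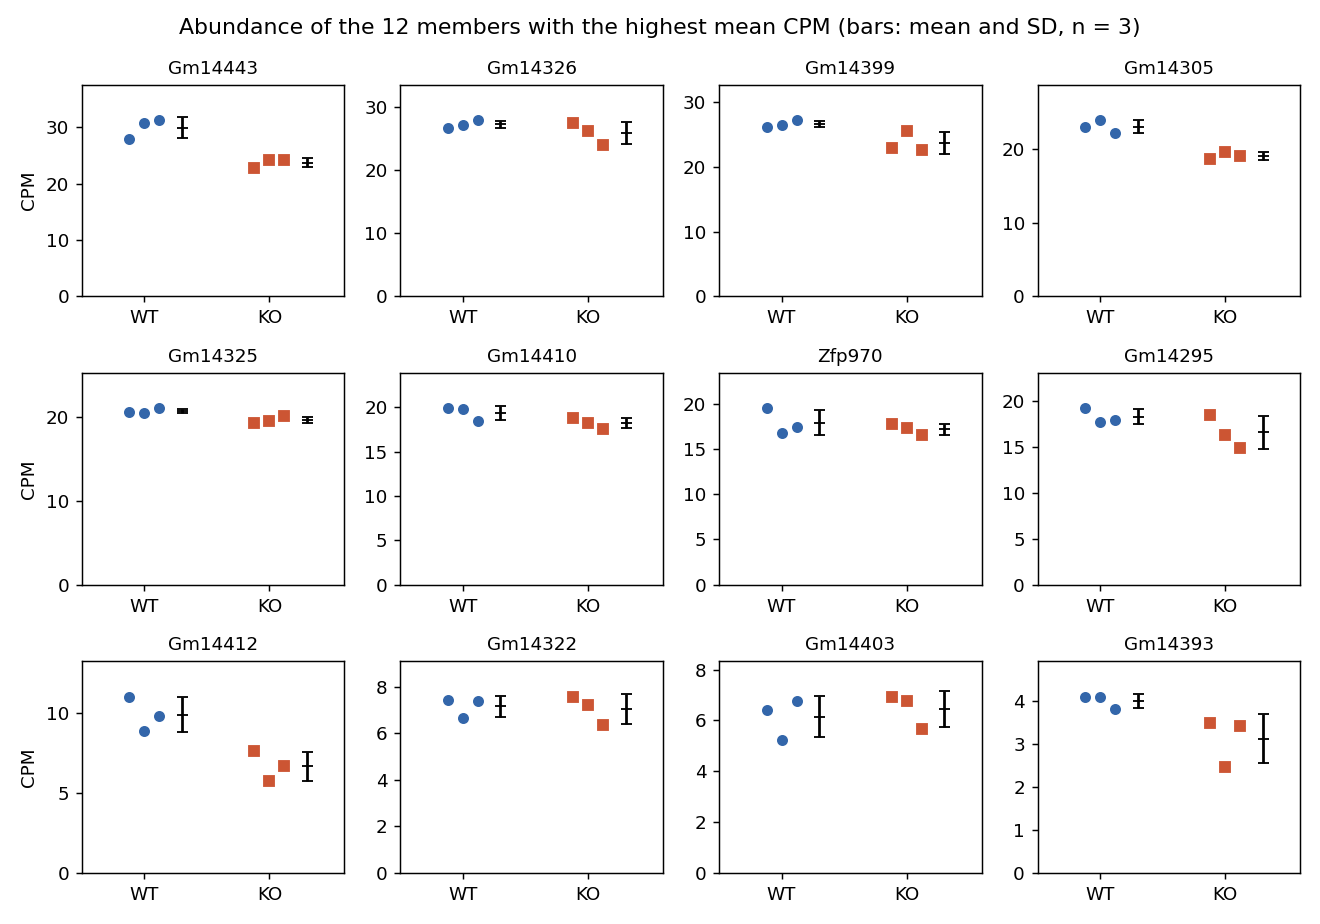
CPM of the 12 members with the highest mean CPM in each WT (circles) and KO (squares) library, with the mean and SD of 3 libraries beside the points and axes from 0. Gm14443, Gm14399, Gm14305, Gm14325, Gm14412 and Gm14393 have every KO library below every WT library.

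Most members tested had lower abundance in the KO libraries, by at most 32.6% among those tested, and no member passed the threshold over all genes. Gm14412 had a WT mean of 9.86 ± 1.08 CPM against a KO mean of 6.65 ± 0.918 CPM (SD over 3 libraries each), a log2 fold change of -0.57 (SE 0.123), or 32.6% lower. Gm14443 had 29.9 ± 1.79 CPM against 23.7 ± 0.822 CPM (-0.33, SE 0.0651, 20.7% lower). Gm14305 had 23.04 ± 0.886 against 19.1 ± 0.511 CPM (-0.27, SE 0.0638, 17.2% lower). In each of these 3 genes all 3 KO libraries lay below all 3 WT libraries.

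The KO and WT libraries were compared by the quasi-likelihood test of edgeR, run on the 21237 genes that passed the filter on low counts, 20 members among them. With Benjamini-Hochberg adjustment over all these genes, 0 members had an adjusted p-value under 0.05, where 0.00942% of all genes did, and DESeq2 also gave 0. The edgeR p-values of Gm14412, Gm14443 and Gm14305 were 0.000652, 0.000281 and 0.00116 before adjustment and 0.550, 0.542 and 0.576 after it. Over the alternatives that gave one, their adjusted p-values ranged from 0.000566 to 0.861, 0.00286 to 0.861 and 0.0904 to 0.861. Gm14412 and Gm14443 passed the threshold in the fit without a filter on low counts, at 0.000566 and 0.00286. They passed in no other fit that gave them an adjusted p-value.

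An unadjusted edgeR p-value under 0.05 was reached by 5 of the 20 members, where 7.92% of all genes reached it. All 5 were lower in KO, the direction of 3.38% of all genes, and 0 were higher, the direction of 4.54%. The other 2 of the 5 were Gm14393 (log2 fold change -0.35, SE 0.150) and Gm14399 (-0.17, SE 0.0661), with adjusted p-values of 0.622 and 0.6003. Each kept an unadjusted p-value under 0.05 in 9 of its 13 alternatives: Gm14393 lost it without WT replicate 1, WT replicate 2 or KO replicate 2 (where it was -0.21) and with DESeq2, and Gm14399 without WT replicate 2, WT replicate 3, KO replicate 1 or KO replicate 3. DESeq2 gave 4 of the 5, without Gm14393. Leaving out WT library 2 left 3 of them, Gm14443, Gm14305 and Gm14412. Gm14393, Gm14399 and Gm14443 follow one another near the left end of the array, all on the minus strand, while Gm14305 and Gm14412 lie in its right part. All 5 carry a KRAB box, and they hold between 3 and 18 fingers.

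The groups did not overlap in 6 of the 20 members, where 14.4% of all genes tested did not. All 6 had KO below WT, as 6.97% of all genes did, and 0 had the opposite order, which 7.46% of all genes had. The sixth was Gm14325, whose log2 fold change was -0.08 (SE 0.0614, edgeR adjusted p = 0.786). In all, 17 of the 20 members had a log2 fold change below 0, where 49.9% of all genes did, and the members' median was -0.16 beside 0.00013 over all genes. That median moved to -0.083 without WT replicate 1, to -0.081 without KO replicate 3 (14 of 20 members below 0 in each) and to -0.092 over members with a mean count of at least 20. The members that passed are those with countable reads, so these counts do not speak for the other 23.

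**Figure D4:**
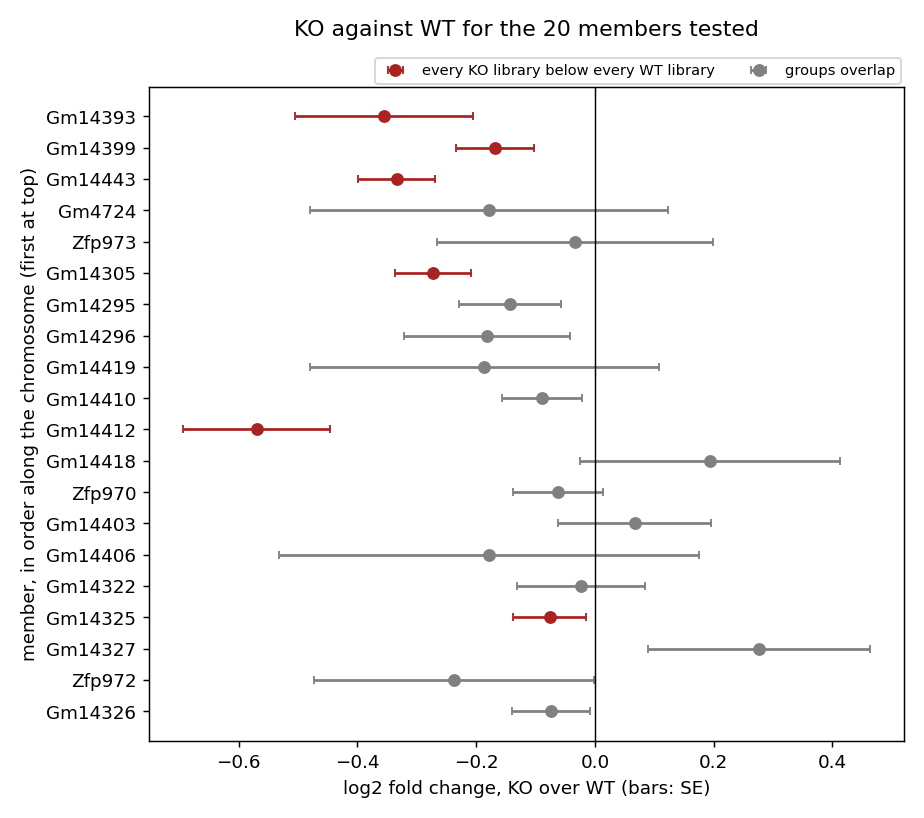
Log2 fold change of KO over WT with its SE for the 20 members tested, in order along the chromosome from the top, with members whose groups do not overlap in red. Values run from -0.57 for Gm14412 to 0.28 for Gm14327, and 17 of the 20 are below 0.

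The members above 0 were Gm14327 (log2 fold change 0.28, SE 0.187), Gm14418 (0.19, SE 0.219) and Gm14403 (0.07, SE 0.128), each with overlapping groups and edgeR adjusted p-values of 0.745, 0.850 and 0.923. Gm14418 had 135, 83 and 103 counts in WT and 175, 106 and 98 in KO, so that KO library 1 alone lay above the WT range. Among the leading members, Gm14326 (-0.07, SE 0.0660), Gm14410 (-0.09, SE 0.0670), Zfp970 (-0.06, SE 0.0759) and Gm14295 (-0.14, SE 0.0855) had values below 0 that did not pass. Single libraries moved these values: Gm14295 was -0.23 without KO replicate 1, with an unadjusted p-value under 0.05, and -0.07 without KO replicate 3, Gm14326 was -0.12 and -0.02 without the same libraries, and Zfp970 ranged from -0.10 to 0.0043. Gm14322, a close copy of Gm14418 with 99.8% coding identity, had -0.02 (SE 0.107). The remaining members tested, Gm4724, Zfp973, Gm14296, Gm14419, Gm14406 and Zfp972, had between 7 and 139 counts per library and standard errors between 0.140 and 0.354.

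Summed over all 43 members, abundance was 225.7, 219.4 and 222.3 CPM in the WT replicates against 205.4, 200.8 and 191.8 CPM in the KO replicates. The means were 222.5 ± 3.14 CPM for WT against 199.3 ± 6.93 CPM for KO (SD over 3 libraries each), a log2 ratio of -0.16, or 10.4% lower in KO, with no overlap. Without the 5 members whose unadjusted p-value was under 0.05, a choice made on the difference itself, the log2 ratio was -0.07 and the groups overlapped, from 125.4 to 133.5 CPM in WT and from 116.007 to 129.99 CPM in KO. Reads mapping to several places, which are left out of these counts, made up between 4.61% and 5.16% of mapped reads in WT and between 5.25% and 5.60% in KO. Summed markers of choroid plexus also did not overlap, from 284.2 to 339.3 CPM in WT and from 341.6 to 409.7 CPM in KO, with none of its 4 markers at 0, while those of the other brain cell types and blood overlapped. Among the single markers, 4 tested per type, 2 of astrocytes, 1 of choroid plexus and 1 of blood were higher at an unadjusted edgeR p-value under 0.05. At that threshold 1 each of astrocytes, oligodendrocytes and microglia were lower, and 0 of neurons and endothelium were called. Of all genes, 7.92% reached it. The part of any of these in the lower counts of the members was not tested.

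The interval also holds 41 annotated features that are not protein-coding, of which 40 are annotated as pseudogenes. Their summed counts were 542, 469 and 483 in WT and 473, 438 and 477 in KO. Of these features 9 passed the filter, and all 9 had a log2 fold change below 0, beside 49.9% of all genes, with a median of -0.13 and a range from -0.35 to -0.02. None passed in edgeR at an adjusted or unadjusted p-value of 0.05, and the groups of 1 (11.1%) did not overlap, beside 14.4% of all genes.

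Genes just inside and just outside the bounds of the interval were set side by side. Just inside, the first member Gm14444 had between 0 and 2 counts per library and the last, Gm14326, between 850 and 975. Just outside on the right, Zfp971 had a WT mean of 24.04 ± 1.45 CPM against a KO mean of 22.7 ± 1.30 CPM (log2 fold change -0.08, SE 0.0703), and Zfp931 had 12.4 ± 0.709 against 11.7 ± 1.33 CPM (-0.09, SE 0.0982). Just outside on the left, Edn3, which encodes the peptide endothelin 3, had 4.64 ± 0.346 against 4.65 ± 0.210 CPM (0.0057, SE 0.116). None of these 3 neighbours passed (edgeR adjusted p = 0.800, 0.850 and 0.994).

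Other protein-coding genes on chromosome 2 between 170 and 182 Mb were taken as flanking genes, and the zinc finger genes among them, such as Zfp831, Zfp971 and Zfp931, are also counted with those elsewhere below. Of 88 tested, 0 passed in edgeR or DESeq2 after adjustment, where here and below a gene without a DESeq2 adjusted p-value counts as not passing. An unadjusted edgeR p-value under 0.05 was reached by 7 (7.95%), beside 7.92% of all genes. Of these 7, 6 were higher and 1 lower, and 35.2% of the flanking genes had a log2 fold change below 0, beside 49.9% of all genes. Protein-coding genes elsewhere named Zfp and a number gave 0 of 332 after adjustment with either tool, 9 higher and 9 lower at an unadjusted edgeR p-value under 0.05, and a median of -0.0019. Their share lower at that threshold was 2.71%, beside 3.38% of all genes and 5 of the 20 members.

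The list of silencing genes holds genes through which KRAB proteins act or that maintain the silent state, and Zfp57. Zfp57 is itself a KRAB zinc finger gene that is also counted among those elsewhere. All 25 genes of the list were measured, and 0 passed after adjustment with edgeR or DESeq2. Trim28, the corepressor bound by the KRAB domain, had a WT mean of 100.2 ± 3.04 CPM against a KO mean of 106.6 ± 0.984 CPM (log2 fold change 0.09, SE 0.0447, edgeR adjusted p = 0.649). Setdb1, which methylates histone H3 at silenced loci, had 73.7 ± 2.55 against 75.7 ± 3.70 CPM (0.04, SE 0.0529, adjusted p = 0.882). Ehmt2, another histone methyltransferase, was the only one with an unadjusted edgeR p-value under 0.05 (0.13, SE 0.0423, edgeR adjusted p = 0.576), or 4% of the list beside 7.92% of all genes. The groups did not overlap in 4 of the 25, beside 14.4% of all genes, with KO above WT for Trim28 and Ehmt2 and below WT for Hdac1 and Hdac2. The 25 genes had log2 fold changes from -0.14 to 0.13, with a median of -0.0021.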

How the data were processed

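Per the labels, long RNA of whole mouse brain was sequenced with a TruSeq total RNA kit. The submitters' processing notes name cutadapt 1.9.1 and STAR 2.7.0f. The genome build and annotation are not given in the sources used here, and the 55450 gene IDs are those of GENCODE M21 (GRCm38). The deposited values are raw counts of reads per gene in 3 strand columns, where reads in several places or several genes are not counted. The column of the opposite strand (the last) was used, which holds between 94.6% and 94.8% of stranded counts.

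Genes were kept by the filterByExpr rule of edgeR 4.0.16 (R 4.3.3), scaled with TMM factors and tested for genotype over all 6 libraries with the quasi-likelihood test and Benjamini-Hochberg adjustment over all genes tested; SE is the log2 fold change over the square root of F. DESeq2 1.42.0 was an alternative. The test was tested on simulated data. Unique windows, coding identity (edit distance over the longer length) and finger and KRAB patterns came from GENCODE M21 transcripts.

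No protein table was used, so zinc finger genes elsewhere are those named Zfp and a number. Members and lists were chosen with earlier results of these data known. Values were printed by rule for the 12 members with the highest mean CPM, for members past adjusted p 0.05 and for up to 5 non-overlapping members in each direction.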

Additional observations from a re-analysis of the deposited data

How the results depend on the processing

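The tests were recomputed with both strands counted, with scaling by DESeq2 size factors or by total counts, without a low-count filter or with one at a mean of 20, with the Wald test of DESeq2, with the replicate block and without each library in turn; the sum of the members was recomputed only under the strand, scaling and left-out-library settings, the count of groups not overlapping without the Wald test and the block, and the median without the Wald test. Adjusted calls among members were 0 in each except without a filter, where 2 members, 1 zinc finger gene elsewhere, 1 flanking gene and 298 genes in all passed, with Gm14412 at -0.56 and Gm14443 at -0.33. For the DESeq2 Wald test no adjusted p-value is available for the leading members. All genes past the threshold numbered 2 in the analysis reported, 26 with the DESeq2 Wald test, 4 with the replicate block and from 2 to 5 with a library left out. The labels tie the replicate numbers to no shared animal, litter or day; same-numbered libraries correlated at 0.0402, -0.0314 and -0.0581, and 1 of the 6 libraries was closest to its own number, so the libraries share only a number. The replicate block kept the same 5 members at an unadjusted p-value under 0.05. That count was 6 with the unstranded column, which added Gm14444. Its reads there are mostly on the opposite strand, between 21 and 52 per library against 0 to 2 on its own. With a library left out the count was from 3 to 5, with 3 without WT library 2. Without WT library 1 it included Gm14327, higher in KO, and without KO library 1 Gm14295. The median of the members ranged from -0.14 to -0.081 with a library left out, the latter without KO library 3, and the log2 ratio of the sum from -0.18 to -0.13. Gm14412 (-0.67 to -0.48), Gm14443 (-0.38 to -0.30) and Gm14305 (-0.30 to -0.25) kept their direction and an unadjusted p-value under 0.05 in all 13 alternatives each. With a library left out, Zfp970 ranged from -0.10 to 0.0043, Gm14322 from -0.080 to 0.048 and Gm14403 from -0.033 to 0.15. Zfp970 turned to 0.0043 and Gm14322 to 0.0061 without WT library 1, Gm14322 to 0.0015 without WT library 3 and to 0.048 without KO library 3, and Gm14403 to -0.033 without WT library 2. Members with no unique window numbered 9 with windows of 75 or 100 bases and 10 with 50 bases. Requiring a KRAB box or fingers left the same number, 5, at an unadjusted p-value under 0.05. Members with few counts limit all of this, since a count of 0 allows 3.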

Other observations

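Reads on the strand opposite to the members, not used above, summed to 182, 168 and 135 in the WT replicates against 139, 118 and 140 in the KO replicates. They exceeded the counts on the gene's own strand for Gm14444, with between 21 and 52 against 0 to 2 per library, and for Gm14401, with between 48 and 70 against 6 to 10. Both were singled out after their values were seen.

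Outside the interval, the 3 genes whose log2 CPM followed the summed abundance of the members most closely over the 6 libraries were Gm7292, Gyg and Rab30, with Pearson correlations of 0.9943, 0.9922 and 0.9917. They are the highest of all genes tested and so carry no test. Gyg encodes glycogenin, which primes glycogen, and Rab30 a small GTPase of the Golgi, and both had every KO library below every WT library, with log2 fold changes of -0.14 and -0.15 (edgeR adjusted p = 0.634 and 0.576).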
